A study of Mus musculus with 24 samples.

Results

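The NRF2 glutathione and thioredoxin genes are a set of 10 mouse genes, the transcription factor gene Nfe2l2 and 9 redox genes, Nqo1, Gclc, Gclm, Txnrd1, Srxn1, Slc7a11, Gsr, Prdx1 and Txnip. They were listed by name from the 17111 genes of the deposited table, with earlier results of these data known, so the count of members called is a description of a chosen set. All 10 were found and passed the filter on low values, which kept 16985 genes. The study profiled muscle stem cells, the resident Pax7-expressing cells that rebuild skeletal muscle, by bulk RNA sequencing in 24 libraries, with 4 libraries in each of 6 groups. The groups combine the genotypes L2A-WT (WT below) and L2A-Pax7CreER (KO below, as the columns of the deposited table call it) with muscle that was uninjured (day 0) or taken 1 or 4 days after an intramuscular injection of 50 µL of 10 µM cardiotoxin, a venom toxin that destroys myofibres. In KO, a Cre recombinase under the Pax7 gene and inducible through a modified oestrogen receptor was directed at Lamp2a, a splice form of Lamp2 whose protein takes up single proteins into lysosomes (chaperone-mediated autophagy). The design addresses the response to injury and the difference between genotypes at each day. The labels name Pax7CreER for KO alone and describe no group with this Cre and intact Lamp2a, so effects of Cre and of Lamp2a loss cannot be told apart. They give no age and no time of Cre induction. Nor do they tie replicates to animals, so a p-value here reflects the spread between samples, which may be technical.

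NRF2, the protein of Nfe2l2, is held at low levels by KEAP1, which presents it to a ubiquitin ligase. When electrophiles or oxidants modify KEAP1, or when the autophagy receptor p62 (Sqstm1) occupies it, NRF2 accumulates and binds antioxidant response elements together with small MAF proteins, while BACH1 competes for such elements at genes of haem and iron handling. Its target genes supply and recycle reducing power through glutathione and through thioredoxin, and in muscle stem cells redox state is known to bear on quiescence, activation and survival. Txnip stands apart among the 10, since its protein binds and inhibits thioredoxin and its transcription is known to follow glucose through the MondoA (Mlxip) and ChREBP factors.

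Libraries held 11.58 to 22.47 M counted reads. Values are normalised read counts, which equal CPM (counts scaled to the library total) multiplied by a factor of the library, which was 0.772 to 0.858 in WT and 1.13 to 1.34 in KO at day 4. The muscle stem cell markers were present in every group, with none at 0 in all 4 libraries of a group. Over both genotypes, 10 such markers summed to 2596 to 3482 at day 0, 4291 to 7343 at day 1 and 1217 to 1402 at day 4. The sum of 15 macrophage markers was 18.2 to 113 at day 0, 8.42 to 30.7 at day 1 and 1128 to 1743 at day 4. The part of macrophage transcripts in the day 4 values was not tested. Mitochondrially encoded transcripts took 28.0 to 31.4% of counts in WT and 43.2 to 47.9% in KO at day 4, against 2.20 to 6.13% at day 1 and 6.96 to 13.3% at day 0. Their part in the results was not tested. In plain CPM, with no scaling factor, the median KO against WT difference of all genes moved by −0.16 at day 1 and −0.45 at day 4 on the log2 scale, so genotype differences are also given against that median where it matters. The whole Lamp2 gene was not called between genotypes at any day (limma, adjusted p = 0.523, 0.887 and 0.981), but it sums all splice forms, so it checks neither the loss of Lamp2a nor the labels. In bulk RNA, fewer cells of a type and less RNA per cell cannot be told apart.

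RefSeq promoters (250 bases before to 50 after a transcription start, GRCm38.p6, a table of sequences on another build than the mm39 named in the submitters' processing notes) were matched by symbol for 8 of the 10 genes, with 10 start sites in all. They are shown because NRF2 acts through a short sequence, whose core was searched as TGACNNNGC and, in the form with G at the fourth base, TGAGNNNGC, on both strands. The core of the amino acid response element, bound by ATF4, was searched as TGATGNAA, since Slc7a11 is a known ATF4 target. The forms with G and of ATF4 were added after the sequences had been seen, and no pair of matches shared a base. The first form stood in the promoters of 5 genes, Nfe2l2, Gclm, Txnrd1 (1 of its 3 start sites), Srxn1 and Prdx1, and the second in those of 3, Srxn1, Slc7a11 and Prdx1. Of 32851 mouse promoters of the same length, 12.4% held the first form, 17.6% the second and 3.97% the ATF4 form. The promoters of Nqo1 and Txnip held none of the 3 within these windows. Capitals mark the matches, and the sequences run 5′ to 3′ along the gene.
Srxn1, chr2:152105274-152105573, plus strand: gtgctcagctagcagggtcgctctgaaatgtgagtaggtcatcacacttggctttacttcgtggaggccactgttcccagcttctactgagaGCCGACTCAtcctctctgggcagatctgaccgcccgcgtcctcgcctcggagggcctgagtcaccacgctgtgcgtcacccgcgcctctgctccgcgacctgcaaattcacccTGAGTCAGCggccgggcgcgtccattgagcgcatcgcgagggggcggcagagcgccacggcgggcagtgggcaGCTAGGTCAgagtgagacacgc
Gclm, chr3:122245307-122245606, plus strand: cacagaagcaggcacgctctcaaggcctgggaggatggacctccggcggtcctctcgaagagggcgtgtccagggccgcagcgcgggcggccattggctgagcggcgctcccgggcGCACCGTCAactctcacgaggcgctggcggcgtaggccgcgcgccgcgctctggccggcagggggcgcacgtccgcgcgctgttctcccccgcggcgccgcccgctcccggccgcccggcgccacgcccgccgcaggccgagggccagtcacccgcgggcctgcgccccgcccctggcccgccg
Txnrd1, start site 2, chr10:82858956-82859255, plus strand: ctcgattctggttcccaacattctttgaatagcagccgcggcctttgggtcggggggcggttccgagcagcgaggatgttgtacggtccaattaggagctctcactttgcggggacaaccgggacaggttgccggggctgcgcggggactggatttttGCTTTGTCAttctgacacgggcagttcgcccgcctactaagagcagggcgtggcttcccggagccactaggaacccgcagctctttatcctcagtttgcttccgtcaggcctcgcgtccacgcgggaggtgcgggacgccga
Prdx1, chr4:116685349-116685648, plus strand: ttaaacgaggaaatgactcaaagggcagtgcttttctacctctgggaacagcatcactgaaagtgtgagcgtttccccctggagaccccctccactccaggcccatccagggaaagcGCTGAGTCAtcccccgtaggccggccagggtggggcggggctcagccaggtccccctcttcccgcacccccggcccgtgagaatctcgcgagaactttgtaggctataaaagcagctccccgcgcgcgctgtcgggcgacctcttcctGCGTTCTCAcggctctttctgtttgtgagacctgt
Slc7a11, chr3:50443564-50443863, minus strand: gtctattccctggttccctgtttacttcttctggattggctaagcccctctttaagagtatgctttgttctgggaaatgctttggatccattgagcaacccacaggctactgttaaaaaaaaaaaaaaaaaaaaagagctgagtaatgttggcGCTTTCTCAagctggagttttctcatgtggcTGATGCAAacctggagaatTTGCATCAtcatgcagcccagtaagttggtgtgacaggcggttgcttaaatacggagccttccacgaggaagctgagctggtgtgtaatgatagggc
Srxn1 held 3 matches, at −158 and −45 (with G) and at 28 (first form), counted at the first base of the match from the transcription start. Slc7a11 held 1 match with G, at −97, and both matches to the ATF4 core, at −66 and −47 on opposite strands. Prdx1 held the first form at −133 and the form with G at 15. A match is a description of letters and not of binding, which was not measured.

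One day after injury, 6 of the 10 genes were higher in KO than in WT and none was lower (limma on log2(value + 1), 1 model over the 24 libraries, adjusted p under 0.05), where 9.20% of all genes tested were called. The 6 were Txnip (7.40-fold), Srxn1 (4.53-fold), Gclc (3.18-fold), Gclm (2.89-fold), Txnrd1 (1.74-fold) and Nfe2l2 (1.45-fold). The median log2 difference of the 10 was 1.14, against −0.03 over all genes tested. In plain CPM these medians were 0.92 and −0.19, and 4 of the 6 calls held under all 19 alternatives run (Txnip, Srxn1, Gclc and Gclm). Before injury the differences lay the other way, with 3 genes lower in KO (Gclc, Gclm and Txnip) and none higher, where 9.75% of all genes were called. At day 4, Gclc alone was called, higher in KO, where 1.05% of all genes were called. Values did not overlap between genotypes for 7 of the 10 genes at day 1 (KO above in each), 3 at day 0 (KO below in each) and 1 at day 4 (KO above), beside 26.2%, 6.97% and 7.70% of all genes tested in either direction.

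**Figure D1:**
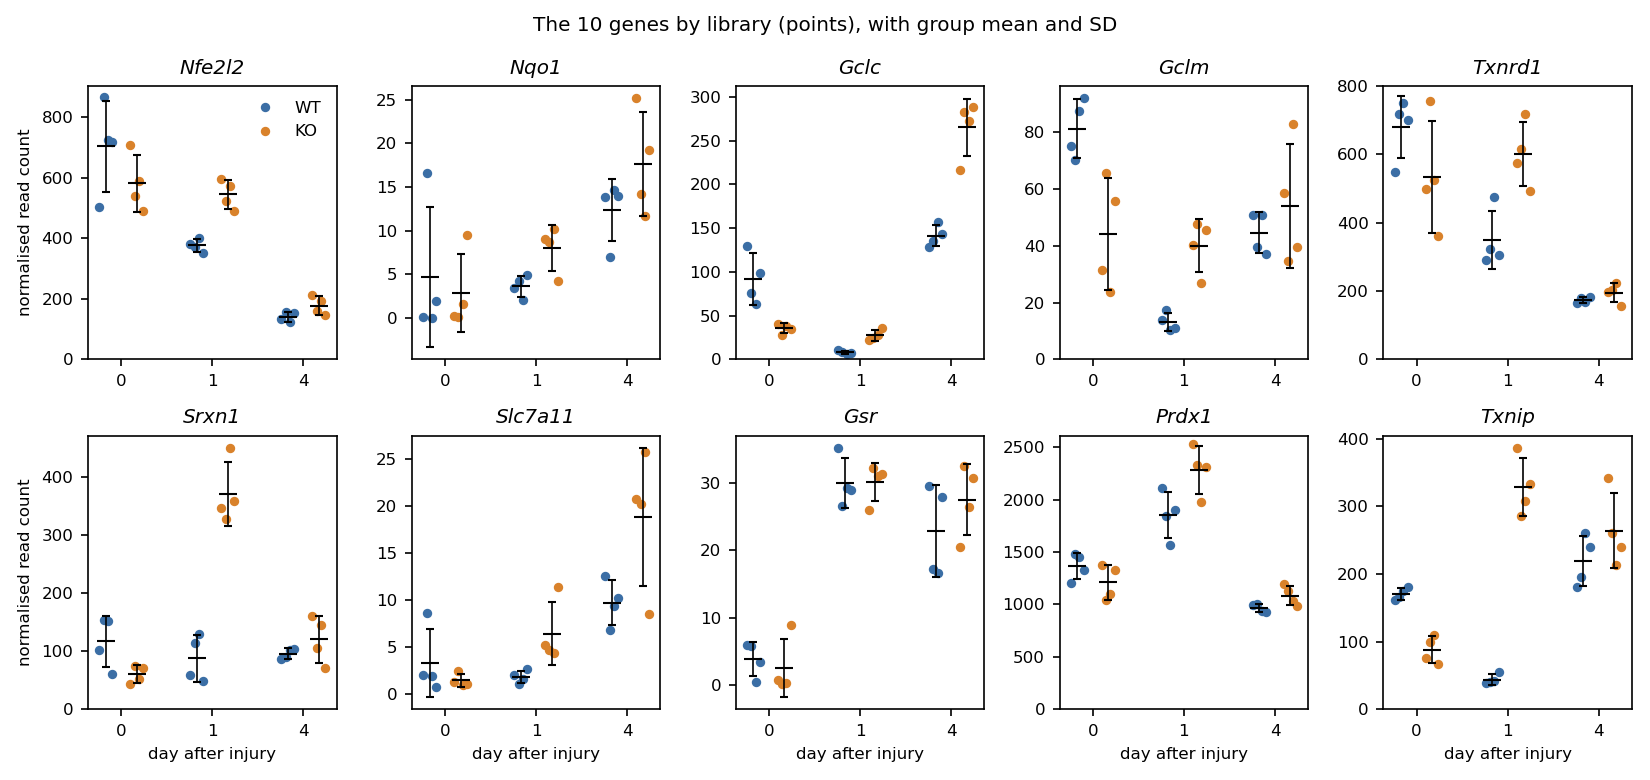
Normalised read counts (vertical axis, linear) of the 10 genes by day after injury, with 1 point per library, WT in blue and KO in orange, and bars for the group mean and SD (n = 4). At day 1 the KO points of Gclc, Gclm, Srxn1, Txnip, Txnrd1, Nfe2l2 and Slc7a11 lie above all WT points, where 26.2% of all genes tested had no overlap between genotypes.

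**Figure D2:**
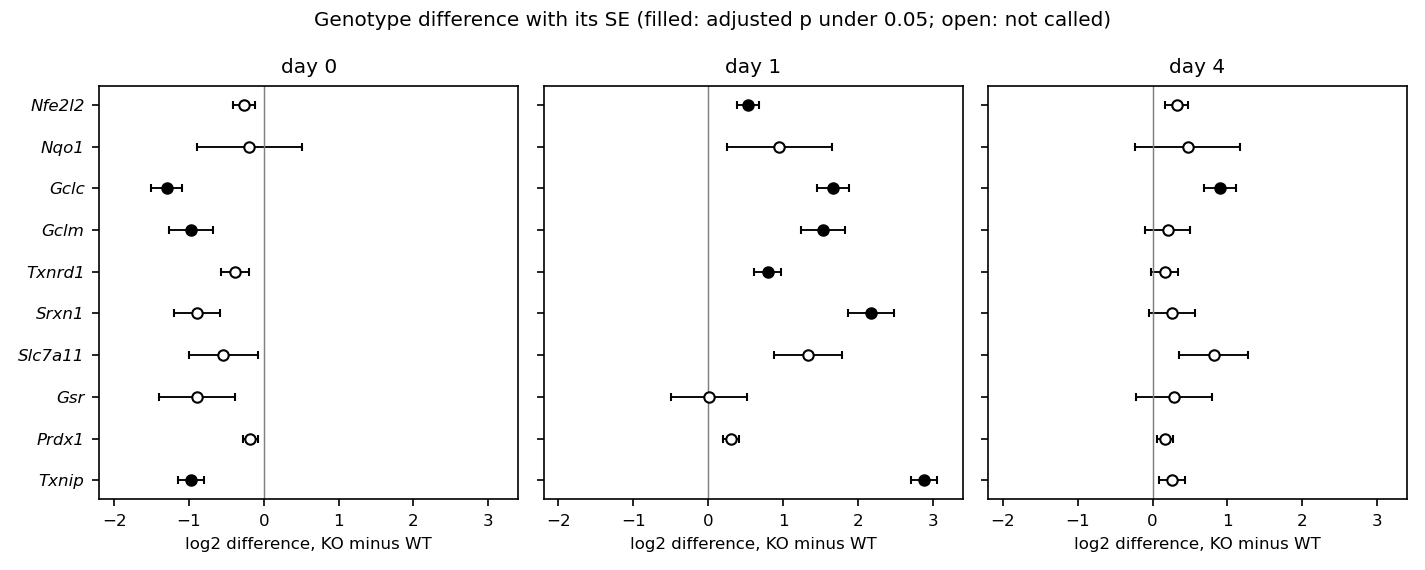
Difference between KO and WT on the log2(value + 1) scale (horizontal axis) for the 10 genes at days 0, 1 and 4, with SE bars from the model over 24 libraries and filled points where the adjusted p is under 0.05. The 3 called differences at day 0 lie below 0, and the 6 at day 1 and the 1 at day 4 above 0.

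Nfe2l2 encodes NRF2 itself, and its transcript fell with injury in WT. In WT its values before injury were 502, 866, 726 and 718, followed by 382, 371, 401 and 350.5 at day 1 and 132, 156, 122 and 154 at day 4. In KO they were 708, 539, 588 and 491 before injury, followed by 597, 524, 571 and 488 at day 1 and 211, 158, 194 and 146 at day 4. The genotypes overlapped at days 0 and 4, while at day 1 every KO library lay above every WT library. The KO against WT difference at day 1 was 0.53 ± 0.15 on the log2 scale (SE, n = 4 per group, limma, adjusted p = 0.0224). It lost its call under quantile normalization (0.22), in plain CPM (0.23), in DESeq2 (0.40, adjusted p = 0.0572) and without WT day 1 replicate 2 or 4 or KO day 1 replicate 1 or 3 (0.49 to 0.53, adjusted p up to 0.0768). The median day 1 difference of all genes was −0.19 in plain CPM and −0.03 under the deposited scaling. Between day 0 and day 1 Nfe2l2 fell by 0.88 ± 0.15 in WT (adjusted p = 2.67e-05), whereas in KO the change was −0.08 ± 0.15 (adjusted p = 0.688). By day 4 it had fallen from day 0 by 2.29 ± 0.15 in WT and by 1.71 ± 0.15 in KO (adjusted p = 7.67e-12 and 1.61e-09), and by less under quantile normalization, with differences of −1.26 and −0.77.

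Gclc and Gclm encode the catalytic and modifier subunits of glutamate-cysteine ligase, which makes the first and rate-limiting step of glutathione synthesis. Gclc stood at 130.1, 75.3, 62.9 and 98.9 in WT at day 0, 10.1, 8.05, 5.93 and 7.61 at day 1 and 129, 136, 157 and 144 at day 4. In KO it stood at 40.8, 28.3, 38.6 and 34.9 at day 0, 22.4, 24.1, 27.3 and 35.8 at day 1 and 217, 283, 272 and 288 at day 4. The genotypes did not overlap at any day, with KO below WT at day 0 and above it at days 1 and 4. The differences were −1.30 ± 0.21, 1.67 ± 0.21 and 0.90 ± 0.21 on the log2 scale (limma, adjusted p = 0.000324, 6.50e-06 and 0.035). The day 4 call was lost without any 1 library of that day other than KO replicate 1 (0.86 to 0.95, adjusted p = 0.0630 to 0.111) and in plain CPM (0.35, adjusted p = 0.33). The median day 4 difference of all genes was −0.48 in plain CPM and −0.03 under the deposited scaling. In WT, Gclc fell by 3.34 ± 0.21 to day 1 and then rose by 4.01 ± 0.21 to day 4 (adjusted p = 6.35e-12 for the fall and 2.48e-13 for the rise). In KO the fall to day 1 was not called (−0.38 ± 0.21, adjusted p = 0.155), except under quantile normalization (−0.59), and the rise to day 4 was 3.24 ± 0.21 (adjusted p = 6.61e-12).

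Gclm was also lowest at day 1 in WT, with values of 75.2, 70.2, 87.6 and 92.2 at day 0, 13.9, 17.2, 10.4 and 10.95 at day 1 and 50.7, 39.6, 50.9 and 37.2 at day 4. In KO the values were 31.6, 65.6, 23.6 and 55.7 at day 0, 40.2, 47.8, 26.7 and 45.5 at day 1 and 58.8, 34.6, 83.0 and 39.7 at day 4, so that the 3 KO groups overlapped each other while WT day 1 lay below every other group. Gclm differed between genotypes by −0.97 ± 0.30 at day 0, 1.53 ± 0.30 at day 1 and 0.20 ± 0.30 at day 4 (limma, adjusted p = 0.0381, 0.000988 and 0.953). The fall to day 1 was 2.56 ± 0.30 in WT (adjusted p = 1.25e-07), and the change in KO was −0.06 ± 0.30 (adjusted p = 0.91). The ratio of Gclc to Gclm within a library, which does not depend on any scaling factor, stood at 0.432 to 1.73 in the day 0 and day 1 libraries and at 2.54 to 8.18 in those of day 4. The day 4 libraries thus lay above all others, in both genotypes.

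Slc7a11 encodes the transport subunit of the cystine/glutamate exchanger that brings in the cysteine for glutathione, and it was counted low at days 0 and 1. Its values at day 1 were 1.97, 1.03, 1.62 and 2.58 in WT, from 22 to 52 reads, and 5.19, 4.63, 4.30 and 11.4 in KO, from 82 to 213 reads. The groups did not overlap, yet the difference of 1.34 ± 0.46 was not called (limma, adjusted p = 0.0733, 95% interval 0.39 to 2.28). It was called when only the day 1 libraries were fitted (adjusted p = 0.0236), with library weights (0.000754) and in DESeq2 (0.0427), all with the same sign. Slc7a11 rose from day 0 to day 4 by 1.61 ± 0.46 in WT and 2.97 ± 0.46 in KO (adjusted p = 0.00598 and 1.32e-05), and the WT rise was not called under quantile normalization (1.10) or in edgeR (adjusted p = 0.0578).

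Gsr encodes glutathione reductase, which returns oxidised glutathione to its reduced form. Its values ran from 0.5004 to 5.88 in WT and 0.179 to 8.90 in KO at day 0, and from 26.5 to 35.2 and 26.0 to 32.2 at day 1, with no overlap between the days. It rose by 2.87 ± 0.51 in WT and 3.77 ± 0.51 in KO (limma, adjusted p = 4.37e-05 and 1.61e-06; 2.02 and 2.36 with a pseudocount of 5) and was above day 0 at day 4 (16.6 to 29.5 in WT and 20.5 to 32.5 in KO). The genotypes overlapped at all 3 days, and the day 1 difference was 0.01 ± 0.51 with a 95% interval of −1.04 to 1.06. The day 0 difference was not called (−0.89 ± 0.51, adjusted p = 0.309), but it was −1.59 and called without KO day 0 replicate 4 (adjusted p = 0.0127). The day 1 interval spans the day 1 difference of Txnrd1 and does not reach those of Gclc, Gclm, Srxn1 and Txnip. Day 0 values rest on 2 to 97 reads per library, and a count of 0 in these libraries would allow up to 3 reads, a value of 0.145 to 0.320 over the 24 libraries (counting error only).

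Txnrd1 encodes cytosolic thioredoxin reductase, which reduces thioredoxin with NADPH. In WT it stood at 549, 717, 751 and 701 at day 0, 291, 323, 474 and 306 at day 1 and 164, 179, 167 and 181 at day 4. In KO it stood at 499.7, 755, 525 and 359.5 at day 0, 573, 615, 719 and 493 at day 1 and 198, 203, 224 and 156 at day 4. At day 1 every KO library lay above every WT library. The day 1 difference was 0.80 ± 0.18 (limma, adjusted p = 0.0045), and it was not called under quantile normalization (0.46, adjusted p = 0.163) or in plain CPM (0.50, adjusted p = 0.131). All genes had a median day 1 difference of −0.19 in plain CPM and −0.03 under the deposited scaling. Txnrd1 fell in WT by 0.98 ± 0.18 from day 0 to day 1, while the change in KO was 0.20 ± 0.18 (adjusted p = 7.17e-05 and 0.386). Both genotypes had fallen by day 4, by 1.96 ± 0.18 in WT and 1.41 ± 0.18 in KO (adjusted p = 3.67e-09 and 9.20e-07), with differences of −0.89 and −0.45 under quantile normalization.

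Srxn1 encodes sulfiredoxin, which repairs hyperoxidised peroxiredoxins, and KO cells at day 1 held its highest values. The WT libraries stood at 102, 153, 152 and 61.1 at day 0, 58.3, 114, 129 and 48.2 at day 1 and 85.5, 89.7, 103 and 104 at day 4. Those of KO stood at 43.8, 74.8, 51.4 and 71.2 at day 0, 346, 328, 450.3 and 359 at day 1 and 160.5, 106, 144 and 70.2 at day 4. The 4 KO day 1 libraries lay above all others. Among the remaining groups, neighbours in the order of means overlapped, while WT day 4 (85.5 to 104) lay wholly above KO day 0 (43.8 to 74.8). Srxn1 was higher in KO at day 1 by 2.18 ± 0.31 (limma, adjusted p = 2.30e-05). In KO it rose by 2.62 ± 0.31 from day 0 to day 1 and fell by 1.67 ± 0.31 to day 4 (adjusted p = 1.99e-07 and 7.80e-05), the fall not being called under quantile normalization (−0.53). In WT the same steps were −0.45 ± 0.31 and 0.24 ± 0.31, and neither was called (adjusted p = 0.237 and 0.534), although the second was under quantile normalization (1.01) and the first, as a fall, without WT day 0 replicate 4 (−0.72, adjusted p = 0.0481).

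Prdx1 encodes peroxiredoxin 1, a peroxidase that sulfiredoxin repairs and thioredoxin reduces. Its values at day 1 were 2110.4, 1845, 1572 and 1898 in WT and 2530.2, 2328, 1980.1 and 2311 in KO, with the groups overlapping. The difference of 0.30 ± 0.10 was not called (limma, adjusted p = 0.0697, 95% interval 0.09 to 0.52), and was called with library weights (adjusted p = 0.0019) and without WT day 1 replicate 1 or KO day 1 replicate 3 (0.37 in both, adjusted p = 0.0343 and 0.0318). This day 1 difference ran from −0.12 to 0.37 over 19 alternatives, and its sign turned under quantile normalization. In plain CPM the day 1 means were 2085 in WT and 2088 in KO, where the median log2 difference of all genes was −0.19. Prdx1 rose from day 0 to day 1 by 0.44 ± 0.10 in WT and 0.92 ± 0.10 in KO (adjusted p = 0.000912 and 9.86e-08). From day 1 to day 4 it differed by −0.94 ± 0.10 in WT and −1.08 ± 0.10 in KO, but these signs turned under quantile normalization (0.08 and 0.36), as did the WT difference of day 4 from day 0 (−0.50 against 0.65), so no direction is given for day 4. The ratio of Srxn1 to Prdx1 within a library was 0.0254 to 0.0823 in WT and 0.137 to 0.227 in KO at day 1, with no overlap, and it overlapped between genotypes at days 0 (0.0460 to 0.105 and 0.0319 to 0.0717) and 4 (0.0862 to 0.113 and 0.0712 to 0.140).

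Txnip, whose protein restrains thioredoxin and glucose uptake, showed the largest genotype difference of the 10 at day 1. In WT its values were 161, 166, 174 and 181 at day 0, 38.3, 40.03, 41.05 and 55.5 at day 1 and 181, 196, 261 and 240.2 at day 4. In KO they were 75.3, 99.2, 110.0 and 66.5 at day 0, 387, 286, 308 and 333 at day 1 and 342, 260.4, 213 and 241 at day 4. All KO libraries lay below WT at day 0 and above WT at day 1, and the genotypes overlapped at day 4. The differences were −0.98 ± 0.17, 2.89 ± 0.17 and 0.26 ± 0.17 (limma, adjusted p = 0.000779, 1.96e-11 and 0.762). By day 1 Txnip had fallen from its day 0 level by 1.95 ± 0.17 in WT and risen by 1.91 ± 0.17 in KO (adjusted p = 1.93e-09 and 3.84e-09). The ratio of Txnip to Txnrd1 within a library was 0.0865 to 0.181 in WT and 0.428 to 0.676 in KO at day 1. The order was the other way at day 0, with 0.231 to 0.294 in WT and 0.131 to 0.210 in KO, and the ranges overlapped at day 4 (1.09 to 1.56 and 0.952 to 1.73).

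Nqo1, a quinone reductase often used to report NRF2 activity, was counted so low that it gives little information here. At day 0 its reads per library were 1, 227, 0 and 29 in WT and 2, 1, 28 and 103 in KO. Its values at day 1 were 3.38, 4.20, 2.04 and 4.90 in WT and 9.08, 8.66, 10.2 and 4.20 in KO, and the lowest KO library fell within the WT range. The day 1 difference of 0.95 ± 0.70 was not called (limma, adjusted p = 0.566), and its 95% interval of −0.50 to 2.39 spans both 0 and the differences of Gclc and Gclm. Nqo1 rose from day 0 to day 4 by 2.88 ± 0.70 in KO and 2.22 ± 0.70 in WT (adjusted p = 0.00199 and 0.0125), but neither was called in edgeR (0.11 and 0.396). The WT call was also lost in DESeq2 (1.57, adjusted p = 0.272) and when only the groups compared were fitted (limma, adjusted p = 0.0593). Leaving out WT day 0 replicate 1 or 3 lost the WT call too (1.77 and 1.74, limma, adjusted p = 0.0522 and 0.0547). The KO rise from day 0 to day 1 (1.84 ± 0.70, adjusted p = 0.035) was not called in 11 of 19 alternatives (0.86 to 1.87, adjusted p = 0.0513 to 0.312), including edgeR, DESeq2 and leaving out any 1 library of these days other than the fourth replicates.

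The 3 calls at day 0, Gclc, Gclm and Txnip lower in KO, were lost when the 8 day 0 libraries were fitted alone. In that fit the log2 differences were the same, 0 of the 10 genes were called and 4 had an unadjusted p under 0.05, while edgeR called 2 and DESeq2 called 4 from all 24 libraries (limma, adjusted p = 0.0842 for Gclc, 0.0672 for Txnip and 0.282 for Gclm). The share of all genes at that unadjusted p is not given here. Gclm also lost its call under quantile normalization (−0.83), library weights, edgeR, plain CPM, and without WT replicate 3 or 4 or KO replicate 1 or 3 (−0.93 to −0.72). Txnip also lost its call with library weights (−0.97, limma, adjusted p = 0.0938). At day 0 a call was gained by Txnrd1 without KO replicate 2 (−0.57, adjusted p = 0.0346) and by Srxn1 without WT replicate 4 (−1.17, adjusted p = 0.0161), with a filter of at least 5 in at least 8 libraries and in DESeq2. Markers of other cell types moved with genotype at day 0. The summed value of 9 fibro-adipogenic progenitor markers was 722 to 1065 in WT and 1706 to 2008 in KO, and that of 6 smooth muscle and pericyte markers was 83.4 to 183 and 252 to 666. The summed value of 7 myofibre transcripts was 4.29 to 9.58 in WT and 27.4 to 71.3 in KO, and that of 14 immediate early genes 2297 to 2417 and 2624 to 3251. Their part in the day 0 differences was not tested. At day 1 both of these lay the other way, the myofibre sum at 149 to 208 in WT and 13.2 to 47.1 in KO, and the immediate early sum at 3105 to 4113 and 1884 to 2472. The smooth muscle and pericyte sum was then 194 to 263 in WT and 270 to 377 in KO, and that of 5 endothelial markers 21.1 to 35.8 and 13.6 to 20.4, again without overlap. Over 15 genes, macrophage markers summed to 8.42 to 30.7 in WT and 14.9 to 27.8 in KO at day 1, and to 1289 to 1743 and 1128 to 1235 at day 4, where Gclc was called and the genotypes did not overlap. Their part in the differences at days 1 and 4 was not tested.

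The deposited scaling bears on the genotype differences at days 1 and 4. At day 4, in plain CPM, 8 of the 10 genes had a sign opposite to that under the deposited scaling, and Prdx1 was then lower in KO (−0.39, adjusted p = 0.00409). The median of the 10 was −0.26 beside −0.48 for all genes, and under the deposited scaling 0.28 beside −0.03. At day 1, Gsr had another sign in plain CPM and Gsr and Prdx1 under quantile normalization, without a call in any of these.

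**Figure D3:**
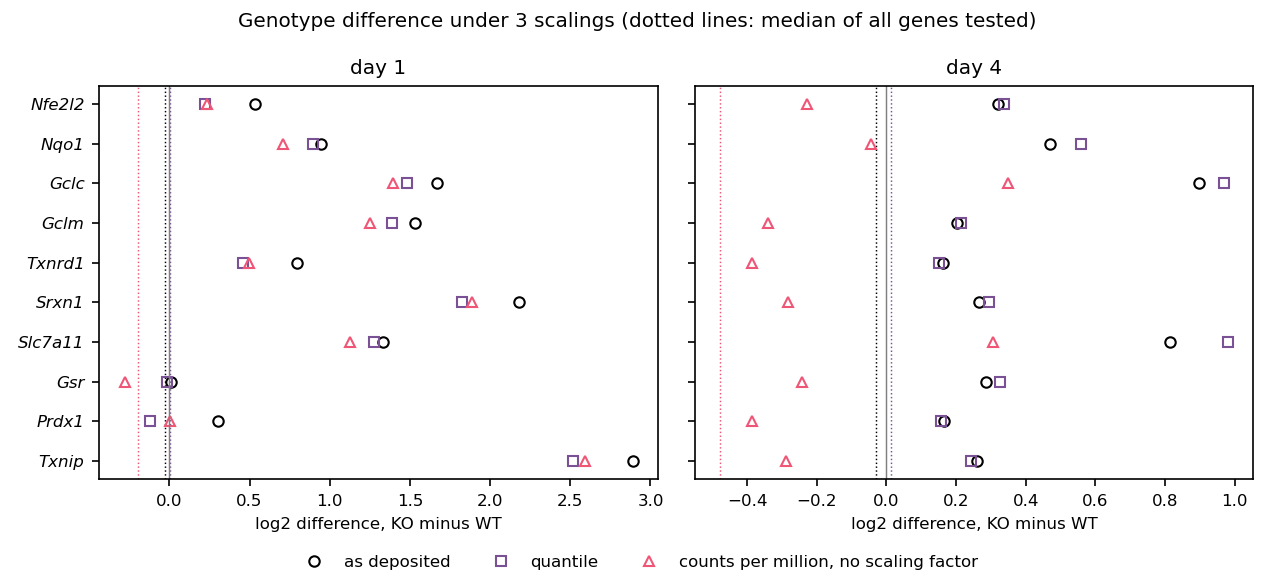
Log2 difference between KO and WT (horizontal axis) of the 10 genes at days 1 and 4 under the deposited scaling (circles), quantile normalization (squares) and plain CPM (triangles), with dotted lines at the median of all genes tested. At day 4 the triangles sit left of the circles with the median of all genes, at −0.48.

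Whether the genotype difference itself changed between days was tested as an interaction. From day 0 to day 1 it changed upward for 7 of the 10 genes and downward for none, where 11.6% of all genes were called. The changes were 3.87 ± 0.25 for Txnip, 3.07 ± 0.43 for Srxn1, 2.97 ± 0.30 for Gclc, 2.50 ± 0.42 for Gclm, 1.18 ± 0.26 for Txnrd1, 0.79 ± 0.21 for Nfe2l2 and 0.48 ± 0.15 for Prdx1 (limma, adjusted p from 2.65e-10 to 0.0316). Txnrd1, Nfe2l2 and Prdx1 lost the call both under quantile normalization (0.74, 0.38 and 0.03) and in plain CPM (0.77, 0.38 and 0.07). The median change of all genes from day 0 to day 1 was −0.26 in plain CPM. Prdx1 lost its call in 14 of its 27 alternatives, among them leaving out any 1 of 9 libraries (0.40 to 0.48, adjusted p = 0.0546 to 0.0769). From day 0 to day 4 it changed for 2, Gclc (2.20 ± 0.30, adjusted p = 0.000107) and Txnip (1.24 ± 0.25, adjusted p = 0.00465), where 3.99% of all genes were called. The Txnip value was not called in plain CPM (0.58, beside a median of −0.53 for all genes) or with library weights (adjusted p = 0.0843). From day 1 to day 4 it changed downward for 2, Txnip by −2.63 ± 0.25 (adjusted p = 1.63e-07) and Srxn1 by −1.92 ± 0.43 (adjusted p = 0.00952), where 3.97% were called. The Srxn1 value was not called under quantile normalization (−1.53, adjusted p = 0.0505).

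Comparisons of days within a genotype called 6 to 8 of the 10 genes, where 40.5 to 52.6% of all genes were called. With so large a background, these counts only describe the 10 genes. From day 0 to day 1, 2 genes rose and 5 fell in WT (52.6% of all genes called), and 6 rose and none fell in KO (45.6% called). Those that rose in KO were Gsr, Srxn1, Txnip, Nqo1, Slc7a11 and Prdx1, of which Txnip fell in WT. The Nqo1 rise was not called in 11 of 19 alternatives. From day 0 to day 4, 4 were higher and 4 lower in WT (44.6% called), and 6 were higher and 2 lower in KO (40.5% called). From day 1 to day 4, 4 were higher and 3 lower in WT (50.4% called), and 2 were higher and 4 lower in KO (49.6% called). Prdx1 is among the lower ones in the WT comparisons with day 4 and in the last KO comparison, and Txnrd1 in the last WT comparison, and these signs turned under quantile normalization. The comparisons of 1 genotype share their libraries, and those of day 1 enter both the first step and the last. Macrophage marker sums also rose by day 4, as given above, and their part in the changes to day 4 was not tested.

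The order of the 6 group means differed from gene to gene. Nfe2l2 and Txnrd1 were lowest at day 4 in both genotypes and highest in WT at day 0, and their ratio within a library stayed between 0.706 and 1.40 over all 24 libraries. Gclc ran from WT day 1 through KO day 1, KO day 0, WT day 0 and WT day 4 to KO day 4, and of these neighbours KO day 1 and KO day 0 overlapped, as did WT day 0 and WT day 4. Txnip ran from WT day 1 through KO day 0, WT day 0, WT day 4 and KO day 4 to KO day 1, with overlap only among the last 3. For Nqo1 and Slc7a11 each neighbour in the order overlapped the next.

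Genes of the same pathways, taken from lists without the 10, were counted in the same way at day 1, where 9.20% of all genes tested were called (7.12% higher and 2.08% lower). Of 36 genes of glutathione synthesis, transport and use, 6 were higher and 0 lower, among them Gstm2, a glutathione transferase (1.76 ± 0.27), Gpx4, the peroxidase of membrane lipids (0.95 ± 0.12), and Slc3a2, the partner chain of Slc7a11 (0.85 ± 0.15), while Gss, which makes the second step of synthesis, was not called (0.32 ± 0.32). Of 21 genes of the thioredoxin and peroxiredoxin system, 3 were higher and 0 lower, with Txn1, cytosolic thioredoxin, at 0.76 ± 0.14 and Prdx6, another peroxiredoxin, at 0.53 ± 0.13, both smaller and not called under quantile normalization (0.32 and 0.09). Of 17 regulators of NRF2, 4 were higher and 0 lower, including Sqstm1 (1.65 ± 0.14) and Bach1 (0.96 ± 0.23), and Keap1 was not called (−0.72 ± 0.55, adjusted p = 0.594). Bach1 was not called in plain CPM (0.67, beside a median of −0.19 for all genes). The median differences of these 3 lists were 0.18, 0.23 and 0.35, beside −0.03 for all genes. Of 33 other NRF2 targets, 8 were higher and 1 lower (median 0.20), led by Hmox1, haem oxygenase (5.09 ± 0.18), with Ftl1, ferritin light chain (1.91 ± 0.10), and Blvrb, biliverdin reductase (1.48 ± 0.28). Of the 7 regulators and relatives of Txnip, 1 was higher, Mlxip (1.07 ± 0.28, adjusted p = 0.0156, not called under quantile normalization, in plain CPM or without WT day 1 replicate 3 or KO day 1 replicate 1 or 4), and Arrdc4, another target of the same factors, was not called (1.03 ± 0.60, adjusted p = 0.401), although it was when only the day 1 libraries were fitted (adjusted p = 0.0107) and with library weights (0.0105). Of 17 ATF4 targets, a list that shares Slc3a2 with the glutathione genes, 4 were higher and 0 lower (median 0.69), among them Slc7a5, an amino acid transporter (1.57 ± 0.23).

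At day 0, where 9.75% of all genes were called, these lists gave 3 higher and 3 lower of 36 for glutathione, 0 and 3 of 21 for thioredoxin, 0 and 0 of 17 for regulators, 3 and 1 of 33 for other NRF2 targets, 0 and 0 of 7 for Txnip relatives and 0 and 4 of 17 for ATF4 targets. At an unadjusted p under 0.05 (limma), 4 of the 17 regulators and 1 of the 7 Txnip relatives were lower and 0 higher. Glutathione genes gave 4 higher and 4 lower and thioredoxin genes 3 and 4. Other NRF2 targets gave 6 and 4 and ATF4 targets 0 and 6. The share of all genes at this unadjusted threshold is not given here, so these counts are not read as a result about the lists. Hmox1 was lower in KO at that day (−2.11 ± 0.18, adjusted p = 4.06e-08), in the direction of Gclc, Gclm and Txnip, whereas Fth1, ferritin heavy chain, was higher (0.42 ± 0.10, adjusted p = 0.00616), a call lost when the day 0 libraries were fitted alone. At day 4, where 1.05% of all genes were called, the counts were 1 and 0 of 36, 0 and 0 of 21, 0 and 0 of 17, 1 and 0 of 33, 0 and 0 of 7 and 0 and 3 of 17. At an unadjusted p under 0.05 (limma), 1 thioredoxin gene was lower, 1 regulator was higher and 1 lower, and 1 Txnip relative was higher. Glutathione genes gave 2 higher and 3 lower, other NRF2 targets 2 and 3 and ATF4 targets 0 and 6. The share of all genes at this unadjusted threshold is again not given, so these counts only describe the lists. These day 4 counts hold for the deposited scaling. In plain CPM the median day 4 difference of all genes was itself −0.48. Genes of the glutathione, regulator and thioredoxin lists were then called lower in KO, among them Gpx4 (−0.68), Sqstm1 (−0.63), Txn1 (−0.50) and Prdx6 (−0.51). The share of all genes called lower in plain CPM is not given here.

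**Figure D4:**
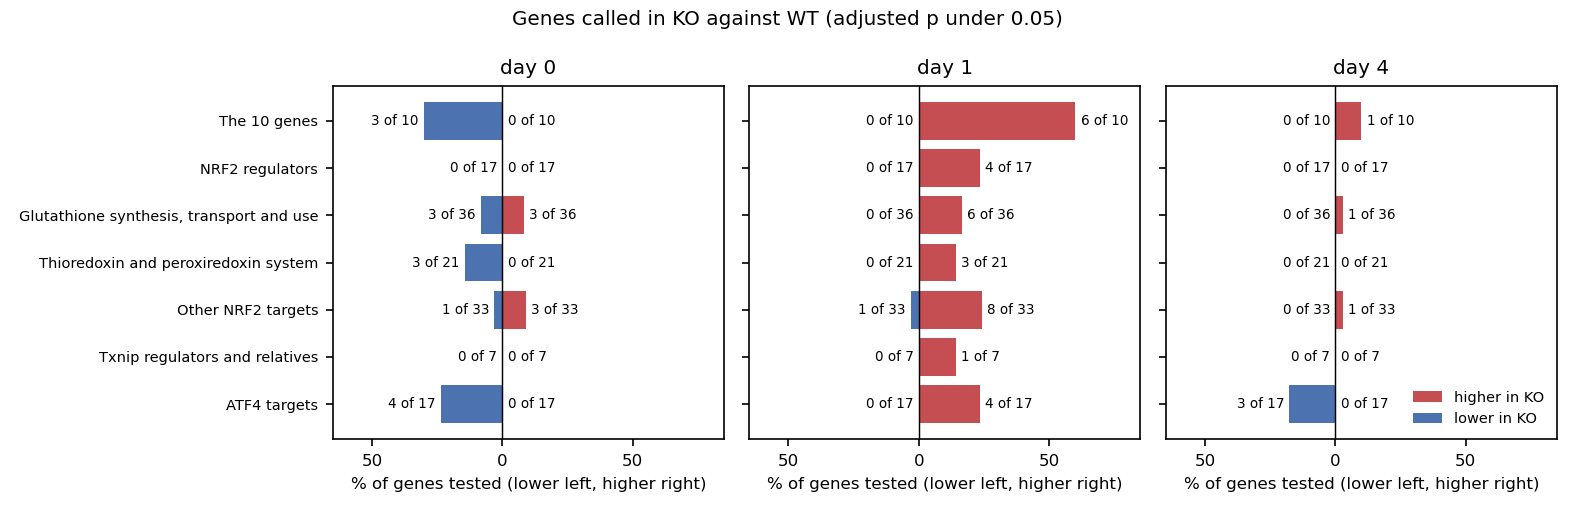
Share of the genes tested in each list (horizontal axis, percent) called higher (right, red) or lower (left, blue) in KO than in WT at days 0, 1 and 4, with the counts printed, for the 10 genes and 6 lists of related genes that leave them out. At day 1 all 7 have a bar to the right, with 6 of 10 for the set and 8 of 33 for the other NRF2 targets, which also have 1 gene to the left.

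The genes most like each member over the 24 libraries, by Pearson's r of log2(value + 1), were picked from genes with a mean value of at least 8. They were Cdc42se2 for Nfe2l2 (r = 0.97), Gigyf1 for Gclc (0.96), Rtf1 for Gclm (0.88), Osbpl9 and then Hspa1b, an inducible heat shock protein, for Txnrd1 (both 0.96), Rpl36al for Prdx1 (0.98), Me2, mitochondrial malic enzyme, for Gsr (0.94), Mgat4b for Slc7a11 (0.90), Fam49b for Nqo1 (0.88), Sept9 for Txnip (0.88) and Ftl1 for Srxn1 (0.86). The points share their libraries and their scaling factors and fall into days, and correlations within days were not computed. Among the 10 genes themselves, Nfe2l2 and Txnrd1 had r = 0.95 and the pair of subunit genes Gclc and Gclm r = 0.68.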

How the data were processed

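The submitters' processing notes name FastQC, STAR, RSEM, limma and the mm39 build, without versions, and the labels' protocols name SMART-Seq v4 libraries; whether strand was used is not given in the sources used here. The deposited values are a linear normalised signal per gene. The table itself shows each to be a whole count plus 0.5, divided by a scaled library size, and the counts so recovered were whole within 0.02 for 100% of values. Scaling factors differed from TMM factors by at most 0.00189 on the log2 scale. The values were fitted here as log2(value + 1), for genes with at least 1 in at least 4 libraries (16985 genes, 126 left out), with limma 3.58.1 in R 4.3.3, a mean-variance trend, 12 contrasts, two-sided tests and Benjamini-Hochberg adjustment per contrast at 0.05. Fold changes on this scale understate those of low genes. edgeR 4.0.16 and DESeq2 1.42.0 were run on the recovered counts as alternatives. The model was checked on simulated counts. The 10 genes, the lists and the motifs were chosen with earlier results of these data known. Other genes named were 13 fixed by name, up to 4 per list and comparison with the largest called, non-overlapping changes, and the 2 most correlated with each member. Same-numbered libraries of different groups did not deviate together (median r 0.00364 over 60 pairs), so numbers were not treated as pairs, and no libraries were duplicates.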

Additional observations from a re-analysis of the deposited data

Results flagged for a closer look

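In 7 of 60 sets of 4 libraries, 1 library stood far from the other 3. The criterion is met in about 1 of 20 such sets if values are independent and normally distributed. Values of genes with few reads need not be, so 7 of 60 is not read as an excess. For Nqo1 these were WT day 0 replicate 2 (16.6), KO day 0 replicate 4 (9.45) and, on the low side, WT day 4 replicate 2 (6.98). For Slc7a11 they were WT day 0 replicate 2 (8.65) and KO day 1 replicate 4 (11.4), for Gsr KO day 0 replicate 4 (8.90) and for Txnip WT day 1 replicate 4 (55.5, beside 38.3 to 41.05 in the others). All but the last belong to genes with few reads, and WT day 0 replicate 2 and KO day 0 replicate 4 each appear for more than 1 gene.

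The genotype difference changed between days by the interaction test for 7 genes from day 0 to day 1, where 11.6% of all genes were called. The changes were 0.79 for Nfe2l2, 2.97 for Gclc, 2.50 for Gclm, 1.18 for Txnrd1, 3.07 for Srxn1, 0.48 for Prdx1 and 3.87 for Txnip on the log2 scale. Nfe2l2, Txnrd1 and Prdx1 lost the call under quantile normalization and in plain CPM, and Prdx1 in 14 of 27 alternatives. The genotype difference changed from day 0 to day 4 by 2.20 for Gclc and 1.24 for Txnip (3.99% of all genes called). From day 1 to day 4 it changed by −1.92 for Srxn1 and −2.63 for Txnip (3.97% called). Alternatives in which Txnip and Srxn1 lost these calls are given with the interaction test above.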

How the results depend on the processing

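Of 2520 values of the 10 genes under alternative settings, 2338 kept their direction and side of the threshold, 85 lost a call, 49 gained one, 7 turned sign with a call on either side and 41 differed in sign without a call. Plain CPM was added after the data had been seen. The number of genes called changed by over 1.5 times as follows, with the cause not tested. For the change of the genotype difference from day 0 to 1 it went from 7 to 4 under quantile normalization and to 4 in plain CPM, and from day 0 to 4 from 2 to 1 with library weights, 4 in DESeq2 and 1 in plain CPM. For day 1 to 4 it went from 2 to 1 under quantile normalization, 4 with library weights and 6 in plain CPM. KO against WT at day 0 went from 3 to 1 with library weights and to 0 when fitted on its own libraries, and at day 4 it ranged from 0 to 1 when 1 library was left out.

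Signs turned under quantile normalization for Prdx1 (0.65 and 0.0801 in WT at day 4 against days 0 and 1, 0.95 and 0.36 in KO), Txnrd1 (0.0037 in WT, day 4 against 1), Txnip (0.98 in KO, day 4 against 1) and Fth1 (−0.16, change of the genotype difference from day 0 to 1). In plain CPM they turned for KO against WT at day 4 in Prdx1 (−0.39), Ftl1 (−0.36), Fth1 (−0.32), Txn1 (−0.50) and Prdx6 (−0.51). The median of all genes was −0.48 in that setting.

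The replicate numbers did not pair the libraries (7 of 24 correlated best with their own number). With the number as a block, the counts of members called were 3, 6 and 1 in KO against WT at days 0, 1 and 4, with Gclm lost (adjusted p = 0.0539) and Srxn1 gained (0.0453) at day 0. Depth limits Nqo1, Slc7a11 and Gsr at day 0, where 0 to 227 reads per library were counted.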
